A study of Caenorhabditis elegans with 51 samples.

Results

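Small RNA against the nuclear pore and nuclear transport genes of Caenorhabditis elegans was compared between 2 Argonaute precipitates and the input they were taken from. Members were the genes whose symbol begins with npp, ima, imb, xpo or ran followed by a number, which gave 36 of the 20202 genes in the table (39 of 20938 gene models). There were 22 npp genes, which encode nucleoporins, 3 ima genes for importin alpha proteins, 3 imb genes for the importin beta family, 3 xpo genes for exportins and 5 ran genes, which encode or are named after the GTPase Ran and its partners. The rule uses symbols and no measured value, but the gene set was proposed with earlier results of these data known.

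Nuclear pores are large ring-shaped assemblies of nucleoporins that span the nuclear envelope. Importins and exportins carry proteins and RNAs through them, and Ran sets the direction, because its GTP-bound form is made in the nucleus and turned over in the cytoplasm. In the worm germline the perinuclear P granules sit over clusters of pores, and messenger RNA leaving the nucleus passes into them. Small RNAs made against germline transcripts by RNA-dependent RNA polymerases are loaded into several Argonautes: HRDE-1 acts in the nucleus in silencing that passes between generations, and CSR-1 is known for small RNAs against germline-expressed genes that stay active.

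HRDE-1 sRIP (small RNA immunoprecipitation), CSR-1 sRIP and the input were each given by the labels as 2 libraries, 6 in all out of 51 samples of the series. All 6 came from young adults of 1 strain, CSS342, which carries the Cer3(red20) allele (the retrotransposon Cer3 with an insert taken from oma-1) together with tagged forms of HRDE-1 (SF-HRDE-1) and of CSR-1 (c-myc-CSR-1). The insert and both tags were thus present in every group. The labels used here name no mock or untagged precipitation, so the small RNA that would come down without a tagged protein was not measured. They also do not say that replicates came from separate cultures, so the p-values cover the spread among these libraries alone, and that spread may be technical.

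Library totals, deduced from the values, ran from 2991634 to 4992358 reads in the precipitates and were 2728020 and 2104162 in the input. Values are RPKM, that is, reads normalised to the length of the gene model and to the library total. The 2 input libraries could not be told apart from repeat draws of the same library (chi-square test across genes, 1.02 per degree of freedom, p = 0.0595), so their mean was used as 1 sample. This test used deduced reads, which are minimum numbers, so it can miss a difference. Calls required an adjusted p under 0.05 (limma, Benjamini-Hochberg over the 10908 genes tested) together with a log2 fold change of 1 or more in size, taken on log2(RPKM + 1). All 36 members were tested, and each had at least 1 RPKM in all 6 libraries, so no member entered through 1 group alone. A member had between 51 and 1564 reads in a library.

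Small RNA against these genes was a small share of every library, and it was lowest in the HRDE-1 precipitate for most members. The 36 genes together took 0.252% and 0.237% of the reads in the HRDE-1 libraries and 0.456% and 0.482% in the CSR-1 libraries, against 0.349% and 0.360% in the input libraries. Their median level was 20.3 RPKM in HRDE-1 sRIP and 47.1 RPKM in CSR-1 sRIP, against 37.2 RPKM in input. Over all genes tested the medians were 11.8 RPKM in HRDE-1 sRIP, 11.1 RPKM in CSR-1 sRIP and 15.7 RPKM in input. In the input all 36 members lay above the median of the genes tested, from npp-17 at 17.02 RPKM to ran-4 at 242 RPKM. This holds on the gene models used, those with the higher mean. The other models of npp-1, npp-9 and xpo-1 had input means of 15.8, 15.5 and 6.27 RPKM. In bulk libraries like these, fewer cells that carry a small RNA and less of it per cell cannot be told apart.

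The order of levels within the set differed between the libraries. In the input ran-4 was highest, followed by ran-5 with 102 and 98.6 RPKM. The next genes, ima-3, npp-20, npp-1 and ran-1, had input values between 48.9 and 62.1 RPKM. Of these, ima-3 and npp-20 overlapped each other, ran-1 overlapped all of the others, and npp-1 lay below both ima-3 and npp-20. The HRDE-1 libraries kept ran-4, ran-5, npp-20 and, on the gene model used, npp-1 as the 4 highest members. On its other model npp-1 had 12.6 and 12.5 RPKM in HRDE-1 sRIP and 14.8 and 16.8 in input. In the CSR-1 libraries ima-2, ima-3 and npp-15 had the highest means, and 6 members had a higher mean than ran-4. In the first CSR-1 library npp-4 and npp-10 (both 75.3 RPKM) lay above ima-3 (74.9) and npp-15 (74.2).

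**Figure D1:**
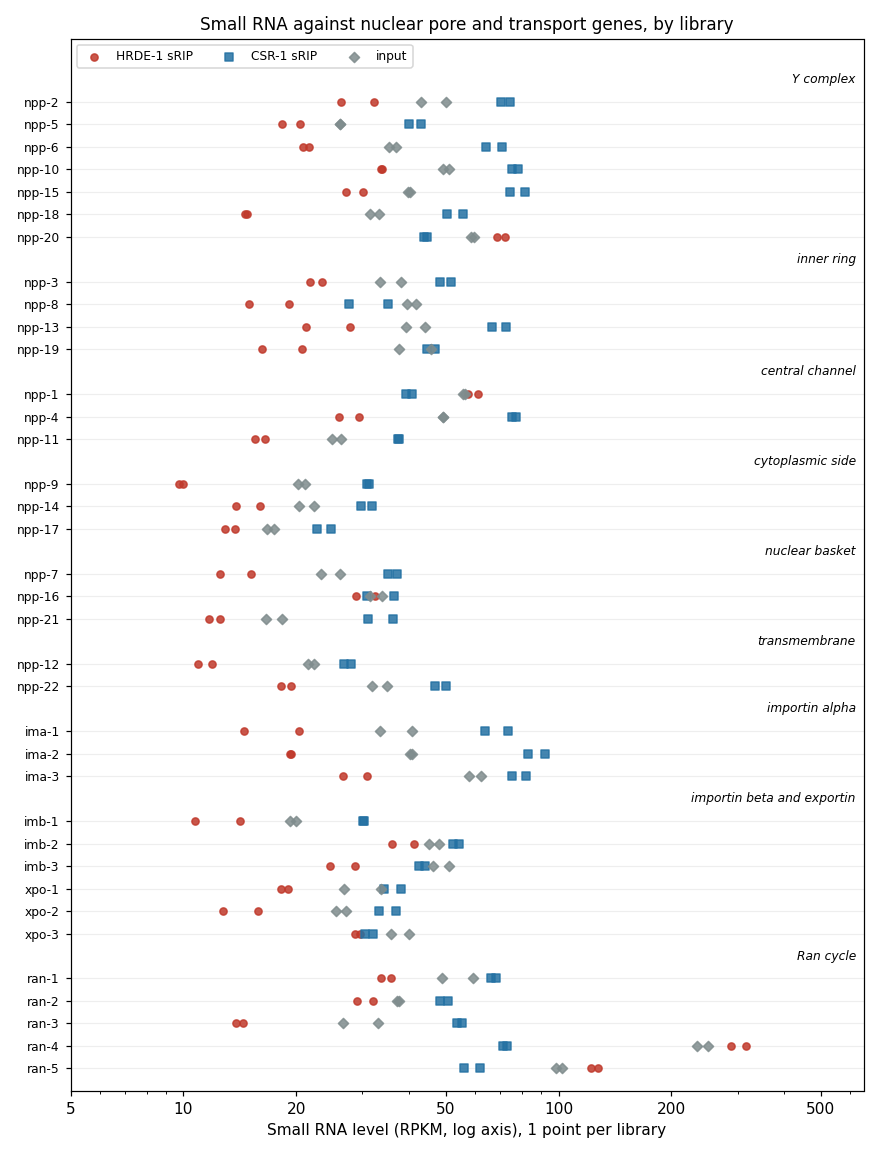
Small RNA level (RPKM, log axis) of each of the 36 members, grouped by role, with 1 point per library for HRDE-1 sRIP, CSR-1 sRIP and input. In most rows the HRDE-1 points lie left of the input points and the CSR-1 points right of them. For ran-4, ran-5, npp-20 and, on the gene model used, npp-1 the order is turned round.

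Setting HRDE-1 sRIP against input shows which of these genes' small RNAs were over- or under-represented with the nuclear Argonaute. By limma 0 of the 36 members rose (0 also at an unadjusted p under 0.05, and 0 with voom weights on deduced reads) and 7 fell: ima-1, ima-2, ima-3, npp-18, npp-19, npp-8 and ran-3. Across all genes tested 7.15% were called higher and 10.3% lower, against 0 and 19.4% of the members. By adjusted p alone, an added rule, 0 members were higher and 27 lower (75.0%), beside 15.9% and 28.1% of all genes. The member median was -0.65 on the log2 scale and that of all genes tested -0.03. The highest member was ran-4, at 0.32.

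The 7 calls lay close to the threshold, with log2 fold changes from -1.21 for npp-8 to -1.03 for ima-2, and adjusted p-values (limma) from 0.00937 to 0.0204. With the library medians set equal 0 were called. At an unadjusted p under 0.05 (limma), 16 members were lower and 4 higher, beside 6529 of the 10908 genes tested in either direction. This scaling moved the median of all genes to 0.35, turned the share of higher calls among all calls to 87.1% from the 41.0% of the deposited scale, and left the members at a median of -0.27. Leaving out either HRDE-1 library or either CSR-1 library, with input counted as 1 sample, lost the calls of members. Those fits have 1 residual degree of freedom, and calls also fell among all genes tested. Without the first and the second HRDE-1 library the member medians were -0.71 and -0.58, beside -0.08 and -0.003 for all genes. Without either CSR-1 library the medians stayed at -0.65 and -0.03. With input as 2 samples the member medians were -0.70 and -0.58 without the first and the second HRDE-1 library. Those of all genes were -0.07 and 0.008. Without either CSR-1 library the member median was then -0.65, beside -0.01 for all genes.

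Against the same input, 1 member rose in CSR-1 sRIP, ima-2, and 1 fell, ran-4. Across all genes tested 7.13% were called higher and 36.8% lower, against 2.78% of the members in either direction. By adjusted p alone 22 members were higher (61.1%) and 4 lower (11.1%), beside 23.7% and 45.4% of all genes. The member median was 0.49 on the log2 scale and that of all genes -0.54. With library medians set equal the all-gene median was -0.08, and 46.1% of all calls were higher against 16.2% on the deposited scale. On the deposited scale 1 member was called higher, beside 778 of the 10908 genes tested. With library medians set equal these were 14 members and 2540 genes. Scaling by median ratios gave an all-gene median of -0.28, a share of 38.7%, 13 members and 2225 genes. Higher calls thus grew among all genes tested as well as among the members. As a share, the members lay below all genes on the deposited scale and above them under both scalings. Both comparisons use the same input libraries, so the values of a member in them are not independent.

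Set directly against each other, the 2 precipitates differed most. Of the 36 members 22 were lower in HRDE-1 than in CSR-1 sRIP (61.1%, against 26.6% of all genes tested), and 2, ran-4 and ran-5, were higher (5.56%, against 43.7%). By adjusted p alone 30 were lower (83.3%, against 36.3%) and 4 higher (11.1%, against 50.8%). This adds npp-20 and, on the gene model used, npp-1 to the 2 ran genes. On its other model npp-1 was lower, at -1.61. The member median was -1.19 on the log2 scale and that of all genes 0.60. The members spanned -2.12 to 2.06. Within the libraries numbered 1 the member median was -1.09, and within those numbered 2 it was -1.25, and the fitted value lay below 0 in 32 members and above 0 in 4 (42.4% and 57.4% of all genes).

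The values of single libraries gave the same picture without a threshold. In 27 of the 36 members both HRDE-1 libraries lay below both input libraries and both CSR-1 libraries above them (75.0%, against 26.6% of all genes tested). The opposite order, both CSR-1 libraries below and both HRDE-1 libraries above the input, was seen in 4 members (11.1%, against 30.9%), namely ran-4, ran-5, npp-20 and, on the gene model used, npp-1.

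**Figure D2:**
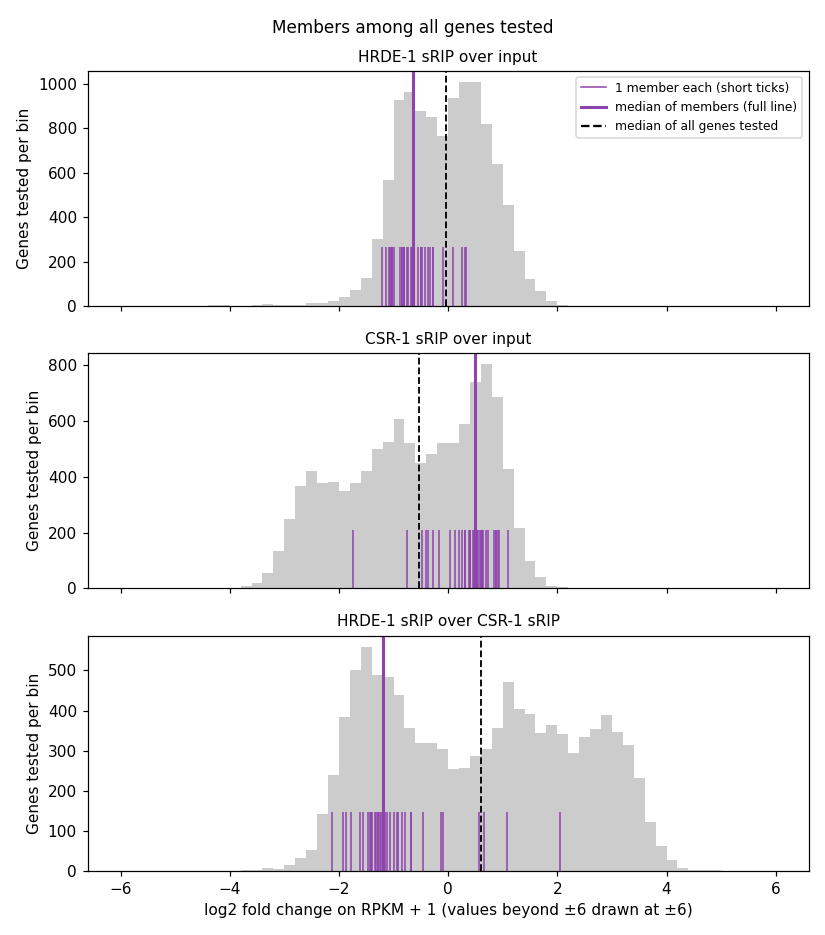
Distribution of the log2 fold change (on RPKM + 1) over the 10908 genes tested, in grey, for HRDE-1 sRIP over input, CSR-1 sRIP over input and HRDE-1 sRIP over CSR-1 sRIP, with the 36 members as short ticks. The member medians (full lines, -0.65, 0.49 and -1.19) are drawn beside those of all genes (dashed lines, -0.03, -0.54 and 0.60), and the member median lies lower in the HRDE-1 panels and higher in the panel of CSR-1 over input.

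The Y complex is the outer scaffold of the pore, and 6 of its 7 members here were lower in HRDE-1 than in CSR-1 sRIP. Counts by class, here and below, are read against the 26.6% of all genes tested that were called lower. The vertebrate counterparts are given as background. For npp-18 (Seh1) the values were 14.8 and 14.6 RPKM in HRDE-1 sRIP and 50.4 and 55.8 in CSR-1 sRIP, against 31.5 and 33.2 in input. For npp-6 (Nup160) they were 20.9 and 21.6 RPKM in HRDE-1 sRIP and 64.0 and 70.7 in CSR-1 sRIP, against 35.2 and 36.9 in input. Neither gene's groups overlapped, and the log2 fold changes of HRDE-1 over CSR-1 were -1.78 ± 0.09 and -1.62 ± 0.09 (SE).

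In the same complex npp-15 (Nup133) had 30.1 and 27.1 RPKM in HRDE-1 sRIP and 74.2 and 81.2 in CSR-1 sRIP, against 39.7 and 40.2 in input. Its log2 fold change of CSR-1 over input, 0.94 ± 0.12, was the second highest of the members but below the threshold of 1. For npp-2 (Nup85) the libraries held 32.2 and 26.4 RPKM in HRDE-1 sRIP and 70.2 and 74.0 in CSR-1 sRIP, against 42.9 and 50.2 in input. The gene npp-10, which encodes a precursor that is cut into Nup98 and Nup96, had 33.6 and 33.8 RPKM in HRDE-1 sRIP and 75.3 and 77.9 in CSR-1 sRIP, against 49.1 and 50.9 in input. For npp-5 (Nup107) the values were 18.3 and 20.5 RPKM in HRDE-1 sRIP and 39.9 and 42.9 in CSR-1 sRIP, against 26.2 and 26.1 in input. All 4 kept the order HRDE-1, input, CSR-1 without overlap. The call of npp-5, at -1.06, was lost (-0.98) when the first HRDE-1 library was left out.

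The seventh member of the complex, npp-20, differed. It encodes the counterpart of Sec13, a protein shared with the COPII coat of secretory vesicles. It lies on chromosome IV from 1490653 to 1496022, minus strand (WBcel235). Its small RNA stood at 68.6 and 72.0 RPKM in HRDE-1 sRIP and 43.8 and 44.6 in CSR-1 sRIP, against 58.3 and 59.4 in input. The groups did not overlap, with HRDE-1 highest and CSR-1 lowest, but the log2 fold change of HRDE-1 over CSR-1 was 0.66 ± 0.08 and did not reach 1 (adjusted p = 0.00115, limma).

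The inner ring anchors the scaffold to the membrane. Of its 4 members 3 were lower in HRDE-1 than in CSR-1 sRIP, against 26.6% of all genes tested. For npp-13 (Nup93) the values were 27.9 and 21.2 RPKM in HRDE-1 sRIP and 66.5 and 72.5 in CSR-1 sRIP, against 44.1 and 39.3 in input. For npp-3 (Nup205) they were 23.5 and 21.7 RPKM in HRDE-1 sRIP and 48.4 and 51.7 in CSR-1 sRIP, against 33.5 and 38.1 in input. In both genes the groups were apart, with input in the middle. For npp-19 (Nup35) the libraries held 20.7 and 16.2 RPKM in HRDE-1 sRIP and 44.7 and 46.8 in CSR-1 sRIP, against 37.6 and 45.8 in input. Its CSR-1 and input values overlapped, and the fall was in the HRDE-1 libraries (-1.15 ± 0.17 over input). For npp-8 (Nup155) there were 19.2 and 14.9 RPKM in HRDE-1 sRIP and 27.7 and 35.1 in CSR-1 sRIP, against 39.5 and 41.6 in input. Both precipitates lay below input for npp-8, and its difference between them was -0.84 ± 0.18, short of the threshold.

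The central channel is filled by nucleoporins with phenylalanine-glycine repeats. For npp-4 (Nup58) the values were 29.4 and 26.03 RPKM in HRDE-1 sRIP and 75.3 and 76.8 in CSR-1 sRIP, against 49.1 and 49.2 in input. For npp-11 (Nup62) they were 16.5 and 15.5 RPKM in HRDE-1 sRIP and 37.2 and 37.5 in CSR-1 sRIP, against 26.3 and 24.8 in input. Both were lower in HRDE-1 than in CSR-1 sRIP, at -1.43 ± 0.10 and -1.18 ± 0.09, with no overlap between any groups. The third channel gene, npp-1 (Nup54), is described with its gene models.

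On the cytoplasmic side of the pore 1 of 3 members was called lower in HRDE-1 than in CSR-1 sRIP. This share was near the 26.6% of all genes tested. For npp-9, the counterpart of Nup358, which holds Ran regulators at the pore, the values were 10.001 and 9.73 RPKM in HRDE-1 sRIP and 30.8 and 31.3 in CSR-1 sRIP, against 20.2 and 21.1 in input. The groups were well apart, and the difference between the precipitates was -1.56 ± 0.10. Against input npp-9 stood at -0.99 ± 0.12 in HRDE-1 sRIP, just outside the threshold, and at -1.06 with a pseudocount of 0.1. The other members of this side, npp-14 (Nup214) at -0.998 ± 0.11 and npp-17 (the RNA export factor Rae1) at -0.79 ± 0.11, had the same order of groups without being called. The value of npp-14 lay just short of the threshold and passed it with a pseudocount of 0.1 (-1.04).

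The nuclear basket faces the chromatin. For npp-7 (Nup153) the libraries held 15.1 and 12.5 RPKM in HRDE-1 sRIP and 35.2 and 37.2 in CSR-1 sRIP, against 26.2 and 23.2 in input. For npp-21 (TPR) they held 12.5 and 11.7 RPKM in HRDE-1 sRIP and 31.1 and 36.2 in CSR-1 sRIP, against 18.3 and 16.6 in input. Both were lower in HRDE-1 than in CSR-1 sRIP, at -1.33 ± 0.12 and -1.40 ± 0.12. The basket gene npp-16 (Nup50) had 32.4 and 28.8 RPKM in HRDE-1 sRIP and 36.4 and 30.9 in CSR-1 sRIP, against 33.9 and 31.4 in input. All 3 groups of npp-16 overlapped, and the 95% interval of HRDE-1 over CSR-1 ran from -0.44 to 0.19 on the log2 scale. On WBcel235 npp-16 overlaps another coding gene, described below.

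Both transmembrane nucleoporins, which hold the pore in the envelope, were lower in HRDE-1 than in CSR-1 sRIP. For npp-22 (NDC1) the values were 19.3 and 18.2 RPKM in HRDE-1 sRIP and 46.8 and 50.04 in CSR-1 sRIP, against 31.9 and 34.8 in input. For npp-12 (gp210) they were 11.9 and 10.9 RPKM in HRDE-1 sRIP and 26.8 and 28.04 in CSR-1 sRIP, against 21.5 and 22.4 in input. Neither gene's groups overlapped, and the differences were -1.32 ± 0.09 and -1.20 ± 0.10.

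The importin alpha genes, whose proteins recognise nuclear localisation signals and bind importin beta, had the lowest class median of HRDE-1 over CSR-1, at -1.93. All 3 were called lower, against 26.6% of all genes tested. The gene ima-2, on chromosome I from 6315233 to 6317262 (plus strand), had 19.3 and 19.4 RPKM in HRDE-1 sRIP and 82.8 and 92.2 in CSR-1 sRIP, against 40.7 and 40.2 in input. The mean of CSR-1 sRIP was 4.52 times that of HRDE-1 sRIP. It was the lowest member in this comparison, at -2.12 ± 0.09 (adjusted p = 6e-05, limma), and the member that rose in CSR-1 sRIP over input, at 1.09 ± 0.11 (adjusted p = 0.00156).

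The gene ima-1, on chromosome V from 11239675 to 11241792 (plus strand), had 20.3 and 14.5 RPKM in HRDE-1 sRIP and 63.8 and 73.5 in CSR-1 sRIP, against 40.6 and 33.5 in input. The gene ima-3, on chromosome IV from 7558726 to 7561664 (minus strand), had 31.0 and 26.6 RPKM in HRDE-1 sRIP and 74.9 and 81.8 in CSR-1 sRIP, against 57.8 and 62.1 in input. In both genes the groups were apart and input lay between the precipitates. Over input, CSR-1 sRIP stood at 0.87 ± 0.22 for ima-1 and at 0.38 ± 0.14 for ima-3, below the threshold, while HRDE-1 sRIP over input stood at -1.06 for ima-1, -1.03 for ima-2 and -1.04 for ima-3, all called.

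Of the importin beta family and the exportins, 2 of 6 were lower in HRDE-1 than in CSR-1 sRIP, a share near the 26.6% of all genes tested. For imb-1, importin beta itself, the values were 14.1 and 10.7 RPKM in HRDE-1 sRIP and 30.1 and 30.2 in CSR-1 sRIP, against 19.2 and 19.9 in input. For xpo-2, the counterpart of CAS, which returns importin alpha to the cytoplasm, they were 15.8 and 12.7 RPKM in HRDE-1 sRIP and 36.9 and 33.2 in CSR-1 sRIP, against 27.1 and 25.5 in input. Their differences between the precipitates were -1.23 ± 0.15 and -1.25 ± 0.14, and neither gene's groups overlapped. The others were not called: xpo-1, the CRM1 exportin of proteins with a leucine-rich export signal, stood at -0.92 ± 0.10, imb-3 at -0.68 ± 0.11 and imb-2, transportin, at -0.46 ± 0.10. For xpo-3, the exportin of transfer RNA, the values were 28.7 and 29.5 RPKM in HRDE-1 sRIP and 30.5 and 32.0 in CSR-1 sRIP, against 35.8 and 40.0 in input. Its precipitates lay close together, both below input, with a 95% interval of the difference from -0.32 to 0.12. On WBcel235 xpo-1 and xpo-3 each overlap other coding genes, described below.

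The Ran genes were spread widely, from -1.87 for ran-3 to 2.06 for ran-4 in HRDE-1 over CSR-1 sRIP (log2 scale). For ran-3, the counterpart of RCC1, which loads Ran with GTP on chromatin, the values were 14.4 and 13.8 RPKM in HRDE-1 sRIP and 53.5 and 55.4 in CSR-1 sRIP, against 33.1 and 26.6 in input. Its difference between the precipitates, -1.87 ± 0.09, was the third lowest of the members. For ran-1, the GTPase itself, there were 35.7 and 33.7 RPKM in HRDE-1 sRIP and 66.2 and 68.0 in CSR-1 sRIP, against 48.9 and 59.0 in input. The groups of ran-1 did not overlap, and its difference between the precipitates was -0.93 ± 0.08, just short of a call. For ran-2, the GTPase-activating protein of Ran, the difference was -0.68 ± 0.09.

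The other two Ran genes were the members that were higher in HRDE-1 than in CSR-1 sRIP. The gene ran-4, on chromosome I from 8591215 to 8591978 (plus strand), encodes the counterpart of NTF2, which carries GDP-bound Ran back into the nucleus. It had 288 and 317 RPKM in HRDE-1 sRIP and 72.8 and 71.0 in CSR-1 sRIP, against 234 and 250.3 in input. The mean of HRDE-1 sRIP was 4.21 times that of CSR-1 sRIP (log2 fold change 2.06 ± 0.12, adjusted p = 0.000101, limma). In CSR-1 sRIP it fell by 1.74 against input (log2 scale, adjusted p = 0.000815), while HRDE-1 sRIP stood at 0.32 ± 0.15 over input (adjusted p = 0.133). Even in CSR-1 sRIP ran-4 lay above the member median of 47.1 RPKM.

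The gene ran-5, on chromosome II from 6048109 to 6049686 (plus strand), had 122 and 128 RPKM in HRDE-1 sRIP and 61.6 and 56.0 in CSR-1 sRIP, against 102 and 98.6 in input. The groups were apart, in the same order as for ran-4. Its difference between the precipitates was 1.07 ± 0.10 (adjusted p = 0.000385, limma), close enough to the threshold that both scaling alternatives took it below, to 0.99 and 0.70. Over input it was at 0.31 ± 0.12 in HRDE-1 sRIP and at -0.76 ± 0.12 in CSR-1 sRIP, and neither was called.

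**Figure D3:**
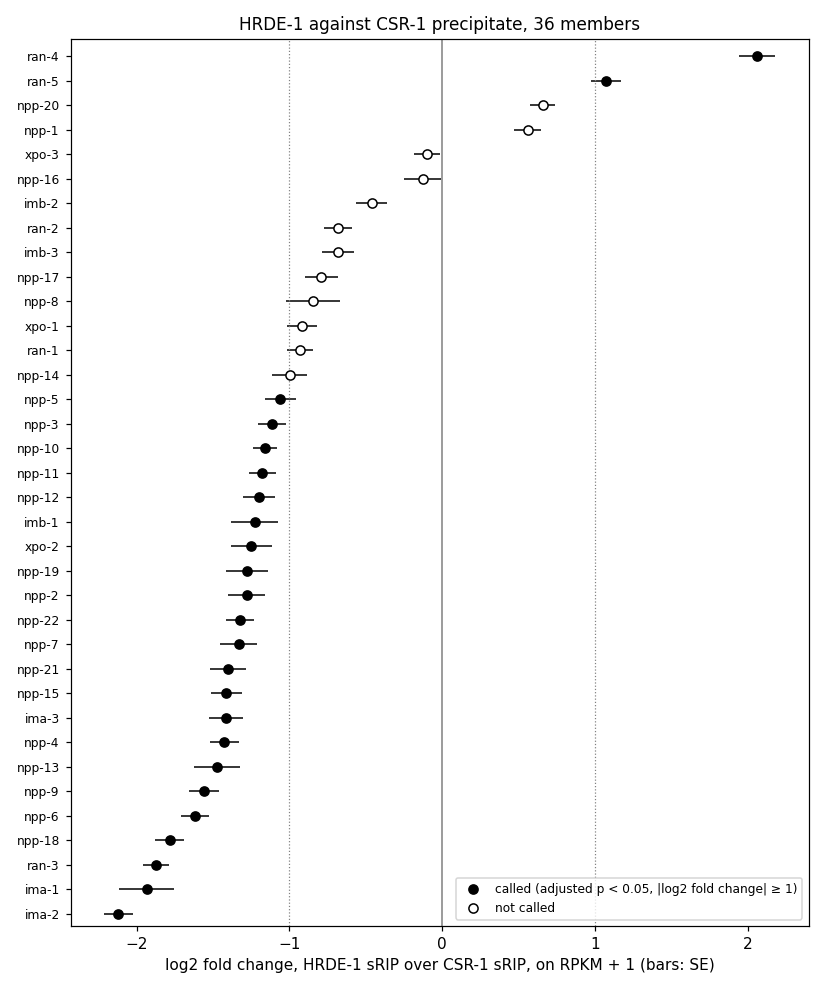
Log2 fold change of HRDE-1 sRIP over CSR-1 sRIP (on RPKM + 1) for the 36 members, sorted, with bars for the SE and filled points for the 24 called. The points run from -2.12 for ima-2 to 2.06 for ran-4. Also above 0 are ran-5, npp-20 and, on the gene model used, npp-1, with xpo-3 and npp-16 next to 0.

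For 3 members the table lists 2 gene models, and the values given so far are those of the model with the higher mean. For npp-1 the choice of model turned the direction round. The gene lies on chromosome IV from 9858488 to 9862119 (plus strand, WBcel235). On its b model the values were 57.3 and 61.2 RPKM in HRDE-1 sRIP and 39.2 and 40.6 in CSR-1 sRIP, against 55.6 and 56.2 in input. On its a model they were 12.6 and 12.5 RPKM in HRDE-1 sRIP and 39.6 and 40.9 in CSR-1 sRIP, against 14.8 and 16.8 in input. The CSR-1 values were thus nearly the same on both models, while the HRDE-1 and input values were several times higher on b.

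In whole reads, model b held 341 and 249 more than model a in the HRDE-1 libraries and 171 and 126 more in the input libraries, while in the CSR-1 libraries model a held 67 and 41 more than b. In the WBcel235 annotation the coding part of the b transcript starts at 9858492 and that of the a transcript at 9859372, and both end at 9861742, with 9 coding segments in b and 7 in a. Where on the gene the reads lay was not tested, since the table gives 1 value per model. With model a the difference between the precipitates was -1.61 (adjusted p = 9.92e-05, limma) in place of 0.56 with b, and CSR-1 sRIP was called higher than input, at 1.29 in place of -0.48. The a model of npp-1 therefore has the order of groups seen in most members, and the b model that of ran-4.

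The models of npp-9 and xpo-1 did not differ in direction. The second model of npp-9 had 7.75 and 6.52 RPKM in HRDE-1 sRIP and 25.4 and 25.8 in CSR-1 sRIP, against 14.8 and 16.1 in input. On that model npp-9 was called lower in HRDE-1 sRIP than in input, at -1.02 (adjusted p = 0.012, limma), and with the other models of all 3 genes 8 members were called lower there in place of 7. The short b model of xpo-1 had 3.45 and 3.30 RPKM in HRDE-1 sRIP and 19.6 and 20.4 in CSR-1 sRIP, against 6.73 and 5.81 in input. That model rests on 11 and 7 reads in the HRDE-1 libraries, 64 and 40 in the CSR-1 libraries and 12 and 8 in the input libraries. On it, CSR-1 over input was called at 1.53 and HRDE-1 over CSR-1 at -2.27, where the longer model gave no call.

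**Figure D4:**
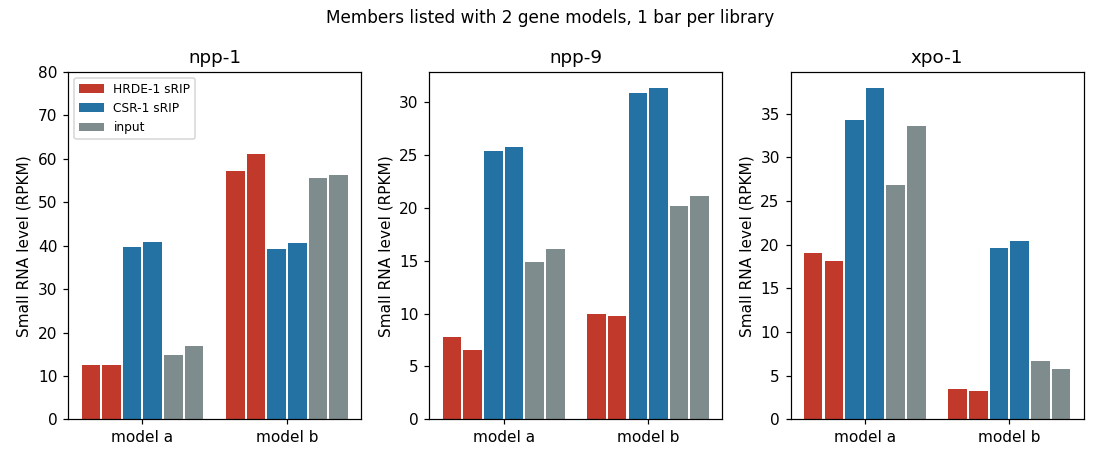
Small RNA level (RPKM) of the 3 members listed with 2 gene models, 1 bar per library, for HRDE-1 sRIP, CSR-1 sRIP and input. For npp-1 the CSR-1 bars are alike on both models (39.2 to 40.9 RPKM) while the HRDE-1 bars are 12.5 and 12.6 RPKM on model a and 57.3 and 61.2 RPKM on model b.

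Some features of the members were not fixed by their symbols. Of the 36 genes 14 lie on chromosome I (38.9%, against 14.3% of the 19606 genes matched to WBcel235) and none on the X chromosome (0 of 36, against 13.7%). On WBcel235, 14 members overlap another coding gene, among them ima-3, npp-8, npp-9, npp-16, ran-1, xpo-1 and xpo-3. The share of all genes with such an overlap was not computed. The gene znf-593, overlapping npp-16, had 492 and 579 RPKM in HRDE-1 sRIP and 125 and 122 in CSR-1 sRIP. The gene ZK742.6, overlapping xpo-1, had 300 and 327 RPKM in HRDE-1 sRIP and 43.7 and 56.7 in CSR-1 sRIP. The neighbour of xpo-3, C49H3.4, was also higher in HRDE-1 than in CSR-1 sRIP. Those of ima-3, imb-1 and npp-9 were lower. The gene rib-2, overlapping ran-1, was higher in HRDE-1 (13.5 and 13.2 RPKM) than in CSR-1 sRIP (8.31 and 6.23 RPKM). So was acr-20, overlapping imb-2, with at most 1.67 RPKM in any library. For slx-1, overlapping npp-6, the values of the precipitates overlapped. Values of the other overlapping genes are not given here. Any effect of these neighbours on the members was not tested. The strand counted by the authors is not given in the sources used here, so reads of such a neighbour cannot be told apart from those of the member. Neither ran-4 nor ran-5 overlaps a coding gene. The deduced model lengths ran from 636 bases for ran-4 to 5951 bases for npp-21, with a median of 2565. Of the 6 members under 1300 bases, ran-4, ran-5 and npp-20 were those higher in HRDE-1 than in CSR-1 sRIP, and npp-18, npp-19 and ran-1 had the opposite order. Across the 36 members the Spearman correlation of length with that difference was -0.19, given as a description because members share their libraries.

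Genes that work beside the pore were described by their own list, also chosen with earlier results known. Of 22 genes of the nuclear envelope and RNA export, 14 were lower and 1 higher in HRDE-1 than in CSR-1 sRIP, against 26.6% and 43.7% of all genes tested, and their median was -1.44, against the 0.60 of all genes. The nucleoporin gene mel-28, whose vertebrate counterpart ELYS starts pore assembly on chromatin, had 19.9 and 20.1 RPKM in HRDE-1 sRIP and 77.2 and 81.6 in CSR-1 sRIP, against 36.6 and 37.1 in input. The RNA helicase gene hel-1, of messenger RNA export, had 18.9 and 21.4 RPKM in HRDE-1 sRIP and 84.1 and 88.9 in CSR-1 sRIP, against 57.3 and 57.8 in input. Both were lower in HRDE-1 than in CSR-1 sRIP, at -1.93 and -2.05. The export adaptor genes aly-2 and aly-3 differed in direction, at 1.68 and -1.90. For aly-2 the values were 71.5 and 76.8 RPKM in HRDE-1 sRIP and 21.9 and 22.96 in CSR-1 sRIP, against 35.0 and 29.0 in input.

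The remaining lists are read against the same shares of all genes tested, 26.6% lower and 43.7% higher. The SUMO pathway, which modifies proteins at the pore among other targets, had 6 of 9 genes lower in HRDE-1 than in CSR-1 sRIP, led by uba-2 and smo-1 (-1.64 and -1.63). Of the proteasome genes 29 of 31 were lower, and of the splicing and snRNP genes 16 of 23 were lower and 1 higher. The medians of these lists were -1.31, -1.75 and -1.40, beside -1.19 for the pore and transport genes. Of the 40 spermatogenesis genes tested, out of 64, 25 were higher, against 43.7% of all genes, and 1 was lower, with a median of 1.34 beside the 0.60 of all genes. Some of these genes passed the filter with under 1 RPKM in both CSR-1 libraries. Among them were msp-36 (0.44 and 0.74), msp-57 (0.44 and 0) and msp-32 (0 and 0). For such genes, near the floor, the direction was partly set by the filter, which all genes tested passed. The lists are described by these counts and were not tested against each other.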

How the data were processed

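Per the labels' protocols, small RNAs were dephosphorylated, phosphorylated again by a kinase, ligated to linkers and amplified. The values deposited by the authors are RPKM per gene model, and Bowtie 1.2.3 was among the tools per the submitters' processing notes. Not given in the sources are the build, the annotation, the strand, the read lengths and the handling of multiply mapping reads, and each could shift the values of overlapping or repeated genes. A second table has 45 value columns that the labels do not tie to a sample, and it was not used. The members and lists were chosen with earlier results of these data known.

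Whole reads were deduced from the RPKM values (all 80624 values above 0 came out whole, 100.0%, within 1e-06 of the value). The deduced model length is the shortest possible one, and 1099 were raised to a multiple where they were under 0.6 of an annotated transcript, so the share is a weak check and reads are minimum numbers. Replicates were compared by a chi-square test of these reads over genes with at least 10 reads in the pair. Chi-square per degree of freedom was 1.99 over 10514 genes for HRDE-1 sRIP and 1.10 over 8176 for CSR-1 sRIP (p = 1.01e-09), against 1.02 over 9328 for input (p = 0.0595). Because the reads are minimum numbers, these chi-square values can be too low. The input pair, not distinguishable from sampling noise, was averaged and counted as 1 sample without an SD, and input as 2 samples is among the alternatives. Whether same-group pairs in general differ could be checked in these 3 pairs only.

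For 610 symbols shared by models the model with the highest mean was kept. Genes with at least 1 RPKM in 2 libraries entered limma 3.58.1 (R 4.3.3) on log2(RPKM + 1), with 3 groups, 5 samples, 2 residual degrees of freedom, a trended prior and Benjamini-Hochberg adjustment over the 10908 genes tested. The pseudocount of 1 understates the change of low genes. The variance of the precipitates was taken to hold for the single input sample. SE and intervals are those of limma. Values by library are given for members called in any comparison, the 5 highest in input, the 3 highest and 3 lowest by fold change in each comparison, the ima genes and ran-1. Others that are named (npp-16 and xpo-3 by library, and the genes near the threshold) were chosen after their values were seen. Coordinates and overlaps are from the Ensembl annotation of WBcel235, 1-based, to which all 36 members and 19606 genes were matched by name, and the build of the authors' models is not known to be the same.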

Additional observations from a re-analysis of the deposited data

How the results depend on the processing

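Counts of called genes in HRDE-1 sRIP against input were the least stable, at 780 higher and 1124 lower. They were 491 higher without the filter, 1172 higher with voom weights, and 2254 higher and 333 lower with library medians set equal, which left 0 members lower in place of 7. Leaving out 1 library gave 0 to 1045 genes higher, 0 to 1256 genes lower and 0 to 6 members lower, and without either CSR-1 library 0 genes were called by limma, with 5512 and 5508 at an unadjusted p under 0.05. Those fits have 1 residual degree of freedom. Input as 2 samples with 1 precipitate library left out was a combination chosen after seeing the data. Its member medians ran from -0.70 to -0.58, beside -0.07 to 0.008 for all genes tested. CSR-1 sRIP over input had 778 genes higher, against 2540 and 2225 under the 2 scalings (members 14 and 13 in place of 1) and 491 to 860 without 1 library (members 1 to 3, and 3 also with input as 2 samples without the first CSR-1 library). HRDE-1 over CSR-1 sRIP had 1 member higher, not 2, under either scaling, while 22 to 29 were lower under all settings. The other models of npp-1, npp-9 and xpo-1, also chosen after seeing the data, gave 3 members higher in CSR-1 sRIP over input and reversed npp-1: -0.32 in HRDE-1 over input, 1.29 in CSR-1 over input and -1.61 in HRDE-1 over CSR-1. With library medians set equal, signs turned in HRDE-1 over input for imb-2 (0.12), npp-16 (0.29), npp-17 (0.050), ran-2 (0.10) and xpo-3 (0.013), and in CSR-1 over input for imb-3 (0.30), npp-8 (0.094), xpo-3 (0.19) and npp-20 (0.060). Median ratio scaling gave 0.24, 0.031 and 0.13 for imb-3, npp-8 and xpo-3 there. Without 1 library npp-16 ran from -0.075 to 0.15 in CSR-1 over input (-0.074 with input as 2 samples) and npp-19 from -0.00029 to 0.28. Of these reversed values, the 1.29 and -1.61 of npp-1 alone were called. The cause of these shifts was not tested. Same-numbered libraries share a number and a code in their titles, and their deviations correlated at 0.0333, 0.0233 and 0.00434 between groups, so the numbers were not taken as pairs. A replicate block, with input as 2 samples, gave 940 genes higher and 1159 lower in HRDE-1 over input, and the same 7, 1, 1, 22 and 2 member counts. Depth limits the short xpo-1 model most, at 7 reads in an HRDE-1 library.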

Other observations

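The nearest neighbours on the same strand were read for the 4 members that, on the gene models used, were highest in HRDE-1 sRIP. That choice was made after their values were seen. The gene tmem-208 starts 113 bases beyond ran-4. It had 175 and 197 RPKM in HRDE-1 sRIP and 48.6 and 59.5 RPKM in CSR-1 sRIP, against 129.9 and 121 RPKM in input. This is the same order of groups as for ran-4. That order was seen in 30.9% of all genes tested, and the opposite order in 26.6%. The gene K07F5.14 starts 101 bases beyond npp-1 and had 21.0 and 18.8 RPKM in HRDE-1 sRIP and 114 and 109 RPKM in CSR-1 sRIP, against 33.8 and 35.4 RPKM in input, the order of the a model of npp-1 and not of the b model. On the other side of npp-1, 420 bases away, K07F5.12 had 7.39 and 8.46 RPKM in HRDE-1 sRIP and 5.31 and 3.80 RPKM in CSR-1 sRIP, against 3.12 and 5.85 RPKM in input. The gene gldc-1 lies 733 bases beyond ran-5 and had at most 1.69 RPKM in any library. Both nearest neighbours of npp-20 are on the opposite strand.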
